A study of Mus musculus with 26 samples.

Results

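The 27 genes described here encode 20 enzymes of the cholesterol synthesis pathway, 6 regulators of its transcription factor SREBP2, and STARD4, a protein that carries sterol between membranes. They were chosen by gene symbol for their place in the pathway, with earlier results of these data known. They are 27 of the 55254 symbols in the table, and all 27 were among the 12034 genes tested. The inner cell mass (ICM) is the inner group of cells of the blastocyst, and 26 of them, from CD-1 mice, were each made into 1 FLASH-seq library, a protocol that copies whole polyadenylated transcripts from very little RNA. Levels are in TPM (transcript abundance as a share of the library), which corrects for gene length and scales every library to the same total.

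All ICMs came from E2.75 morulae that were grown for 24 hours in KSOM medium and then stripped of their outer cells by immunosurgery after removal of the zona pellucida. The 5 DMSO libraries had the vehicle. The 7 LY libraries had LY294002, an inhibitor of the lipid kinase PI3K, at 10 µM. The 8 FGF4 libraries had FGF4 with heparin at 1 µg/ml, and the 6 LY+FGF4 libraries had both. Litters were pooled before the embryos were shared out, so each library is a separate embryo whose litter is not known, and all groups share the strain, the stage and the culture time. LY294002 also acts on other kinases, so the LY groups show the compound and not the loss of PI3K activity alone.

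Cholesterol is built from acetyl-CoA. The first steps lead to mevalonate, the next to farnesyl diphosphate, and squalene is then made, closed to lanosterol and trimmed to cholesterol. SREBP2, encoded by Srebf2, is made as a precursor in the endoplasmic reticulum, where SCAP binds it and carries it to the Golgi when sterol is low. There the proteases encoded by Mbtps1 and Mbtps2 release the part that enters the nucleus and raises transcription of the synthesis genes. INSIG1 and INSIG2 hold SCAP back when sterol is plentiful, and Insig1 is itself a target of SREBP2. In cells of many kinds the PI3K, AKT and mTORC1 pathway raises SREBP activity, which is why the response of these genes to LY is of interest.

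The stretches upstream of 5 of the genes are printed because SREBP2 acts through promoter elements of its targets, with NF-Y and GC-box factors as its usual partners. Binding of SREBP2 to the printed stretches was not measured. Insig1, Mvd, Lss and Srebf2 had lower levels with LY, and Hmgcs1 did not pass the test in any comparison. The sequences run from 250 bases before the RefSeq start of each gene on GRCm38.p6 to the base before its first annotated start in RefSeq or GENCODE, 5′ to 3′ on the gene's strand, with matches to the sterol regulatory element TCACNCCAC and to the NF-Y motif CCAAT on either strand in capitals.
Insig1, chr5:28071162-28071362, plus strand: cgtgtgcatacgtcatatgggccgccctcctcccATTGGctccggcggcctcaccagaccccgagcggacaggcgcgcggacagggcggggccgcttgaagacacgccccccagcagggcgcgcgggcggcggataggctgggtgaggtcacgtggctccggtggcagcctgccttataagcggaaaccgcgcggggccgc
Mvd, chr8:122443423-122443672, minus strand: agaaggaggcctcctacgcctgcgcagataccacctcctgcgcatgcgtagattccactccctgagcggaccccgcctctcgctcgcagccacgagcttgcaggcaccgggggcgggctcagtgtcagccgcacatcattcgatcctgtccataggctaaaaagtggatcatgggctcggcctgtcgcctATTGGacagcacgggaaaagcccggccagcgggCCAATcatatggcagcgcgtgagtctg
Lss, chr10:76531355-76531587, plus strand: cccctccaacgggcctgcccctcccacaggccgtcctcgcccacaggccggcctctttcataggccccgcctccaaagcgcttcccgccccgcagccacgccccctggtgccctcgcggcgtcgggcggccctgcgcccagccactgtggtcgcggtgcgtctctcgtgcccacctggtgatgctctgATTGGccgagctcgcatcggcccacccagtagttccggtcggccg
Srebf2, chr15:82147019-82147180, plus strand: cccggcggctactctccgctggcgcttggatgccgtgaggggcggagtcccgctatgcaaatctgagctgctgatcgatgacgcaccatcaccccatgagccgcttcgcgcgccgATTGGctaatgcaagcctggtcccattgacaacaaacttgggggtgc
Hmgcs1, chr13:119690101-119690350, plus strand: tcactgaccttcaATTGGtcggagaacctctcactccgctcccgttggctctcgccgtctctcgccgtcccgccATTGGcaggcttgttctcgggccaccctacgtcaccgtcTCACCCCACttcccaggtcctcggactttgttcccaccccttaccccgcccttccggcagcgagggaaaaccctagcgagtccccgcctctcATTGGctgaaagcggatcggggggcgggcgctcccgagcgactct

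RefSeq promoters, 250 bases before to 50 after the start, matched 23 of the 27 genes by symbol. Fdps, Fdft1, Sqle and Stard4 had no entry. Hmgcs1 alone held the letters TCACNCCAC, starting at position -137 from the gene's start, whereas 388 of 27025 genes in the table (1.436%) held them. The NF-Y letters CCAAT were in the promoters of 19 of the 23 genes (82.61%), beside 41.06% of all genes in the table. The GC box GGGCGG was in 20 of the 23 (86.96%), beside 38.2% of all genes. Both strands were searched for these exact letters, so strings that differ from them were not counted. No base of these promoters fell in 2 motifs at once, and a match is a string of letters, not a measured binding site.

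Levels in the DMSO libraries spanned from a mean of 782 TPM for Fdps, the highest, to 7.00 for Tm7sf2, the lowest. Hmgcs1 (463), Msmo1 (398), Insig1 (380), Dhcr7 (336) and Ebp (299.8) followed Fdps. All 27 genes were above 0 in every DMSO library. In LY+FGF4 between 20 and 25 of them were above 0. The summed level of the 27 genes was 4462 ± 579 TPM for DMSO (SD, n = 5), 2624 ± 481 for LY (n = 7), 2826 ± 968 with FGF4 (n = 8) and 1966 ± 392 with LY+FGF4 (n = 6). The lowest DMSO library (3880) was above the highest LY library (3240), while FGF4 ran from 1644 to 4269 and overlapped every other group.

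Libraries also differed in ways that touch these sums. The number of genes at 1 TPM or more was 10212 to 11367 for DMSO, 9860 to 10215 for LY, 8315 to 10871 for FGF4 and 7486 to 9534 for LY+FGF4, and the 6 libraries under 9000 genes were 2 of FGF4 and 4 of LY+FGF4. Any fit below without those 6 keeps only replicates 6 and 7 of LY+FGF4. The summed level of 25 primitive endoderm markers was 1017 to 2105 TPM (DMSO), 339 to 611 (LY), 1949 to 6544 (FGF4) and 1170 to 4556 (LY+FGF4). Gata4 was at 0 in 5 of 7 LY libraries and Sox17 in 4 of 7. Gata6 was above 0 in all 7, with a mean of 168 TPM beside 253 in DMSO. Lamc1 and Cited1 had higher means in LY than in DMSO, Cited1 at 35.9 beside 30.4 TPM. Of 22 tested endoderm markers 18 had a log2 difference below 0 for LY minus DMSO, beside 57.3% of all genes tested. The 14 epiblast markers summed to 2033 to 2805 TPM for DMSO, 1663 to 3092 for LY, 787 to 1624 with FGF4 and 569 to 1653 with LY+FGF4. Trophectoderm markers were still detected after immunosurgery, at 1595 to 3062 TPM summed over 21 genes for DMSO, 2191 to 3076 for LY, 769 to 2152 with FGF4 and 830 to 2797 with LY+FGF4. Members of that list differed in direction: Cdx2 averaged 83.5 TPM for DMSO, 6.88 for LY, 45.3 with FGF4 and 23.2 with LY+FGF4, and Eomes 15.2, 10.2, 32.7 and 59.6 in that order. Since an ICM is a mixture, fewer cells of a type and less RNA per cell cannot be told apart in any value below.

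**Figure D1:**
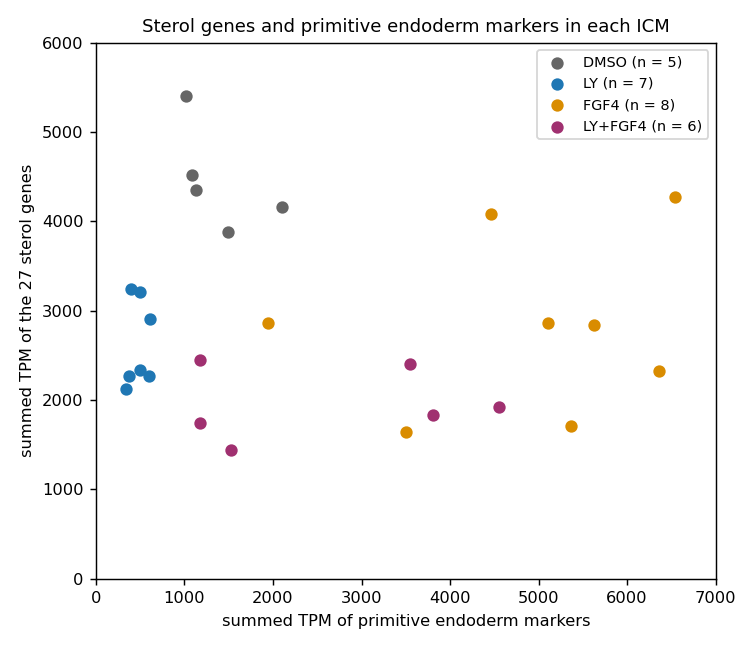
Summed TPM of the 27 sterol genes (y axis) against the summed TPM of the primitive endoderm markers (x axis), 1 point per ICM, coloured by group. The LY libraries lie low on both axes (2124 to 3240 and 339 to 611 TPM), and the FGF4 libraries spread far to the right at sterol sums of 1644 to 4269.

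Sterol genes and primitive endoderm markers were both lower in LY than in DMSO. In FGF4 the endoderm markers were higher than in DMSO. The summed level of the 27 sterol genes had a lower mean there (2826 TPM, beside 4462 in DMSO), with overlapping libraries. Of their 27 differences between FGF4 and DMSO 23 were below 0, beside 56.1% of all genes tested, and 0 were called by the test described below. The part of cell composition in the LY differences was not tested.

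Whether LY lowered the pathway was asked in embryos without added FGF4 (LY minus DMSO), in embryos with it (LY+FGF4 minus FGF4), and as the mean of both effects, which uses the same libraries. All were fitted with limma on log2(TPM + 1), and a gene was called at a Benjamini-Hochberg adjusted p under 0.05 over all genes tested. In the averaged effect 10 of the 27 genes fell and 0 rose, where 3.6% of all genes tested were called lower and 1.04% higher. The 10 were Acat2, Pmvk, Mvd, Fdps, Fdft1, Lss, Nsdhl and Sc5d among the enzymes, and Insig1 and Srebf2 among the regulators. The median log2 difference of the 27 genes was -1.14, beside -0.18 over all genes tested. Of the 27 differences 23 were below 0, beside 62.7% of all genes tested.

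**Figure D2:**
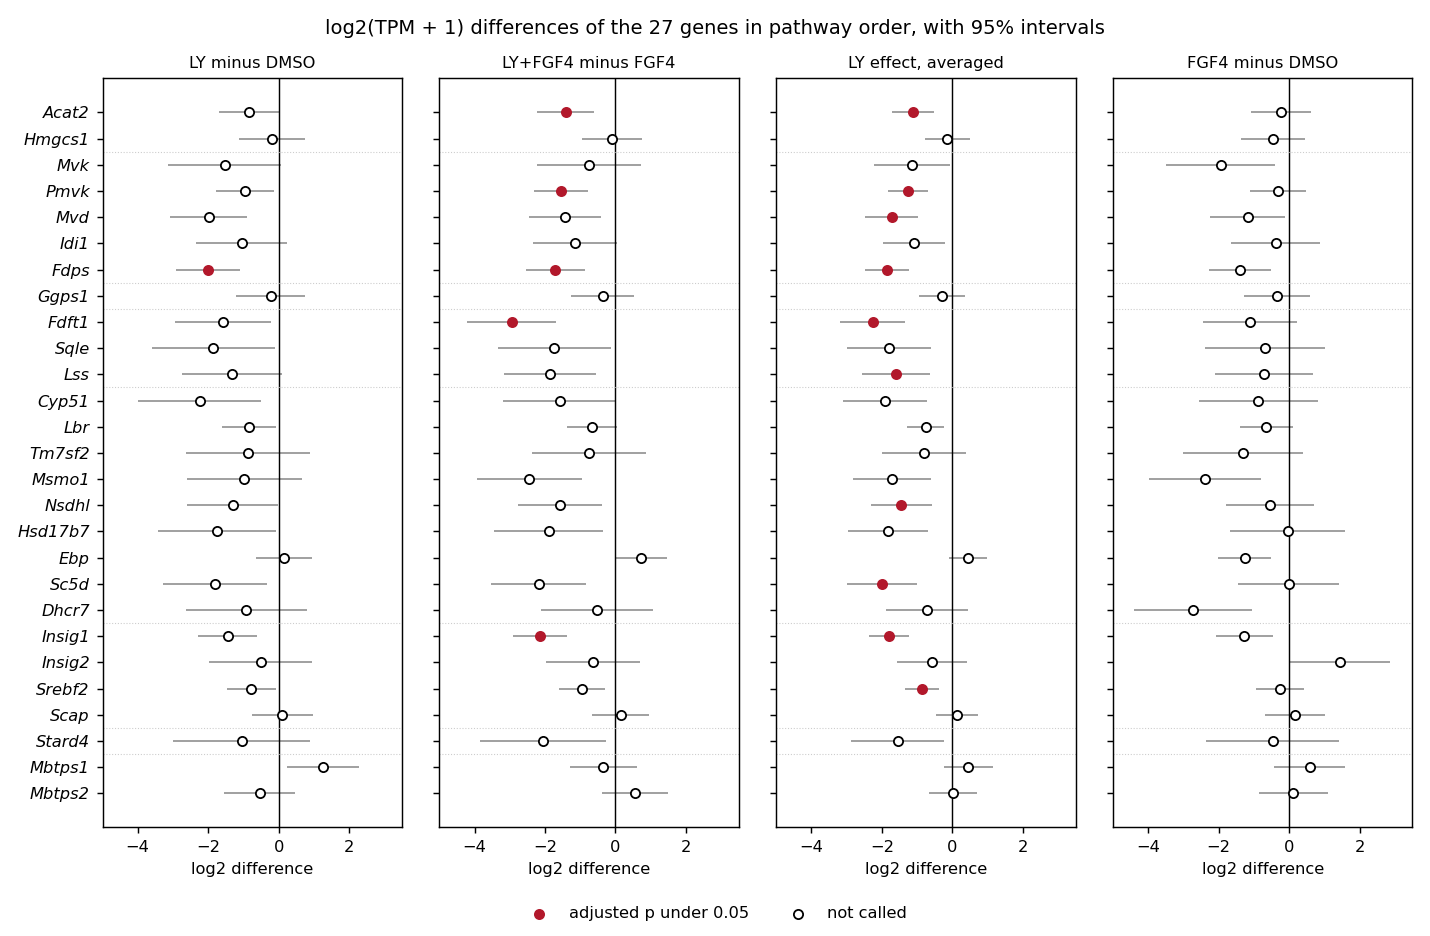
Differences in log2(TPM + 1) for all 27 genes in pathway order from Acat2 to Mbtps2, with 95% intervals, for 4 comparisons. Filled red points passed an adjusted p of 0.05 (1 gene for LY minus DMSO, 5 for LY+FGF4 minus FGF4, 10 for the averaged LY effect and 0 for FGF4 minus DMSO), and dotted lines part the stages.

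Taken apart, the comparison without FGF4 called 1 of the 27 lower (Fdps) and 0 higher, where 0.299% of all genes were called lower and 0.0748% higher. The median difference was -0.98, beside -0.10 over all genes tested, and 24 of 27 were below 0, beside 57.3% of all genes. At an unadjusted p under 0.05 stood 13 of the 27, of which 12 were lower and Mbtps1 was higher, beside 8.59% of all genes in either direction. In 6 of the 27 (Mvd, Fdps, Fdft1, Sqle, Cyp51 and Nsdhl) every LY library lay below every DMSO library, as it did for 1.54% of all genes tested.

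With FGF4 present, 5 of the 27 fell (Acat2, Pmvk, Fdps, Fdft1 and Insig1) and 0 rose, where 2.83% of all genes were called lower and 0.723% higher. The median difference was -1.41, beside -0.24 over all genes tested, and 24 of 27 were below 0, beside 63.1% of all genes. Every LY+FGF4 library lay below every FGF4 library for Insig1 alone, beside 0.49% of all genes. The 5 calls came down to Insig1 without the 6 libraries under 9000 genes, a fit that keeps only LY+FGF4 replicates 6 and 7. The median there was -0.91, beside -0.16 over all genes, and 22 of 27 were below 0. Insig1 alone was also called with the number of genes at 1 TPM or more as a covariate. The median was then -0.86, beside 0.04 over all genes, and 20 of 27 were below 0. The cause was not tested. In the averaged effect 8 genes were called without those libraries. Fdft1, Fdps, Insig1, Mvd and Pmvk were among them, Acat2, Lss, Nsdhl, Sc5d and Srebf2 were not, and Cyp51, Hsd17b7 and Sqle were added. With the covariate Fdps, Insig1 and Mvd were called in the averaged effect.

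The first steps of the pathway gave a called gene and an uncalled one side by side. Acat2 (chr17:12942890-12960747, minus strand), whose enzyme joins acetyl-CoA units, was at 165, 217, 219, 202 and 187 TPM in the DMSO libraries. In LY its lowest, median and highest values were 41.2, 132 and 195 TPM, in FGF4 94.7, 152 and 306, and in LY+FGF4 22.7, 65.1 and 172. All 4 groups overlapped in part, with the LY+FGF4 median lowest. Acat2 fell by 1.12 on the log2 scale in the averaged LY effect (SE 0.29, limma adjusted p = 0.0214) and by 1.41 with FGF4 present (adjusted p = 0.0396). That last call was lost in 8 of 14 fits that each dropped a library, where its adjusted p reached 0.103, and the difference was -0.80 without the libraries under 9000 genes. Tcp1, a gene that shares 445 bases with an Acat2 transcript, averaged 836 TPM for DMSO, 783 for LY, 700.3 with FGF4 and 429 with LY+FGF4, and its part in the Acat2 values was not tested.

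Hmgcs1 makes HMG-CoA, the compound reduced to mevalonate, and held the letters TCACNCCAC in its promoter printed above. Its DMSO libraries stood at 606, 449, 394, 276 and 589.8 TPM. In LY the lowest, median and highest were 262, 464 and 560.2 TPM, in FGF4 46.9, 408 and 798, and in LY+FGF4 155, 275 and 869. The groups overlapped throughout. Its averaged LY difference was -0.14 with a 95% interval of -0.78 to 0.49 (limma adjusted p = 0.850), so a fall of the size seen in Fdps lay outside the interval. Its share of the summed level of the 27 genes was 10.6% ± 3.77 in DMSO (SD, n = 5) and 16.8% ± 7.58 in LY (n = 7).

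The 5 genes from mevalonate to farnesyl diphosphate had 3 that fell in the averaged LY effect (Pmvk, Mvd and Fdps), and Mvk and Idi1 did not pass. Their summed level was 1215 ± 262 TPM for DMSO, 403 ± 90.7 for LY, 637 ± 296 with FGF4 and 267 ± 170 with LY+FGF4 (SD). The LY libraries (299 to 557) all lay below the DMSO libraries (925 to 1640).

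**Figure D3:**
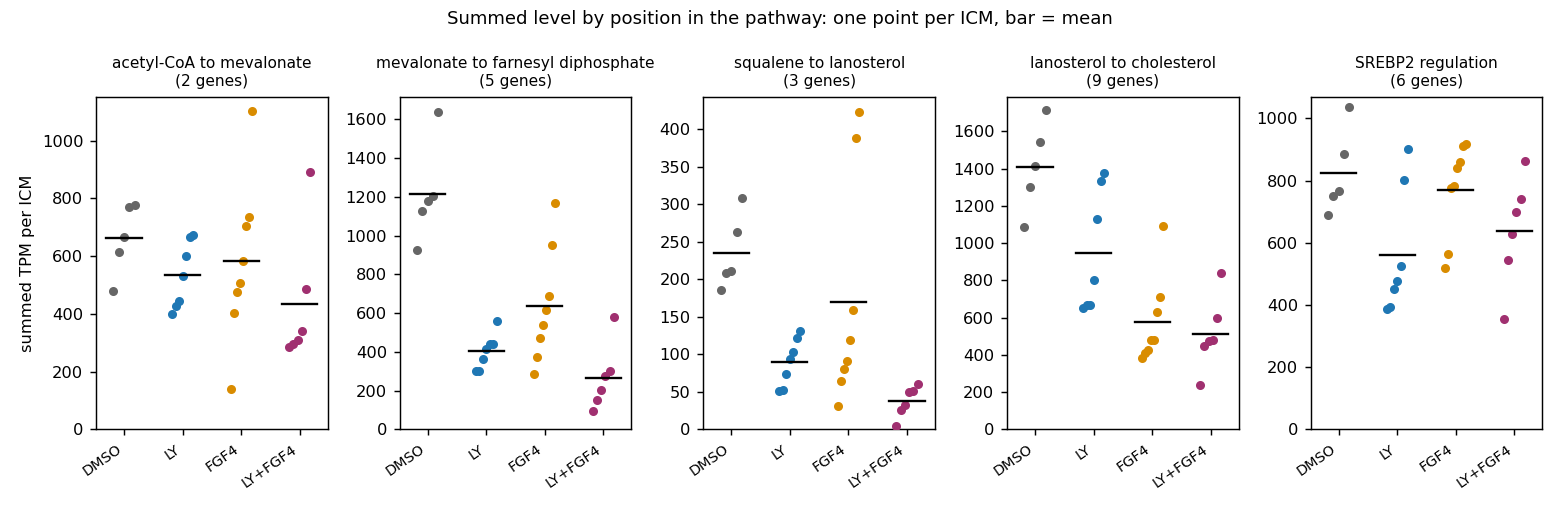
Summed TPM per ICM for each stage of the pathway with more than 1 gene, 1 point per ICM sorted by value within its group, bars at the mean. The panel titled squalene to lanosterol includes Fdft1, whose enzyme makes squalene. The genes from mevalonate to farnesyl diphosphate stand at 925 to 1640 TPM in DMSO and 299 to 557 in LY, while the sums of the first stage and of the SREBP2 regulators overlap between these groups.

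Fdps (chr3:89093588-89101959, minus strand) encodes farnesyl diphosphate synthase, at the branch point to sterols, dolichol, ubiquinone and protein prenylation. It stood at 745, 1136, 815, 703 and 510.5 TPM in the DMSO libraries. The lowest, median and highest were 94.0, 191 and 346 TPM in LY, 128, 261 and 683 in FGF4, and 18.5, 94.1 and 246 in LY+FGF4. Each LY and LY+FGF4 library was below each DMSO library, and FGF4 and LY+FGF4 overlapped. The fall with LY was 2.01 on the log2 scale without FGF4 (SE 0.45, limma adjusted p = 0.0353) and 1.71 with it (SE 0.41, adjusted p = 0.0186). The averaged effect was -1.86 (SE 0.30, adjusted p = 0.000428), which is 3.62-fold lower. The call without FGF4 was lost in 9 of 12 fits that each dropped a library, with differences between -2.15 and -1.84 and adjusted p up to 0.120, while the averaged call held in all 37 alternative fits. Fdps made up 17.3% of the summed level of the 27 genes for DMSO, 7.49% for LY, 11.1% with FGF4 and 5.62% with LY+FGF4.

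Mvd (chr8:122433601-122443422, minus strand) encodes mevalonate diphosphate decarboxylase. Its DMSO libraries were close together at 59.5, 76.9, 79.6, 77.8 and 71.9 TPM. The lowest, median and highest were 7.85, 21.3 and 31.3 TPM in LY, 6.64, 35.4 and 92.2 in FGF4, and 3.19, 9.69 and 28.2 in LY+FGF4. Both groups with LY lay wholly below DMSO, and FGF4 spread across both. The averaged LY effect on Mvd was -1.72 (SE 0.37, limma adjusted p = 0.00597) and was called in all 37 alternative fits.

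Pmvk (chr3:89454541-89469013, plus strand), the gene of phosphomevalonate kinase, was at 147, 229.7, 134, 123 and 116 TPM in DMSO. Its lowest, median and highest values were 31.3, 77.7 and 173 TPM in LY, 63.4, 119 and 275 in FGF4, and 13.7, 39.4 and 76.5 in LY+FGF4. LY+FGF4 was the only group wholly below DMSO, and LY and DMSO overlapped. Pmvk fell by 1.54 with FGF4 present (SE 0.37, limma adjusted p = 0.0182), a call lost without LY+FGF4 replicate 2 (adjusted p = 0.0518), and by 1.25 in the averaged effect (SE 0.27, adjusted p = 0.00706).

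Mvk, the kinase gene of the step before Pmvk, averaged 78.2 ± 27.3 TPM for DMSO, 29.3 ± 18.4 for LY, 30.5 ± 24.2 with FGF4 and 16.6 ± 15.8 with LY+FGF4 (SD), and its averaged LY difference of -1.14 did not pass (limma adjusted p = 0.232). Idi1, the isomerase gene, averaged 132 ± 45.0, 70.5 ± 46.7, 113 ± 73.1 and 75.5 ± 73.2 TPM in the same order, with a difference of -1.10 (adjusted p = 0.142). Ggps1, whose product turns farnesyl into geranylgeranyl diphosphate for protein prenylation and so leaves the sterol path, averaged 104 ± 55.2 TPM in DMSO and 81.5 ± 19.5 in LY. The averaged LY difference of Ggps1 was -0.30 with an interval of -0.96 to 0.37.

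The stage from farnesyl diphosphate through squalene to lanosterol takes 3 genes, of which Fdft1 and Lss fell in the averaged LY effect. Fdft1 (chr14:63145150-63179578, minus strand) encodes squalene synthase, the first step that leads only to sterols. It was at 113, 156, 89.5, 228 and 102 TPM in DMSO. The lowest, median and highest were 19.4, 43.2 and 86.4 TPM in LY, 18.7, 53.8 and 269.96 in FGF4, and 0, 6.91 and 32.9 in LY+FGF4. The LY and LY+FGF4 libraries were all below the lowest DMSO library, and LY+FGF4 was lowest by its median. Fdft1 fell by 2.95 on the log2 scale with FGF4 present (SE 0.62, limma adjusted p = 0.00729) and by 2.26 in the averaged effect (SE 0.46, adjusted p = 0.00413), while without FGF4 its difference of -1.58 did not pass (adjusted p = 0.462). Its 774 exonic bases that overlap Ctsb lie on the opposite strand, and the averaged LY difference of Ctsb was 0.05 (adjusted p = 0.913).

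Lss (chr10:76531588-76557138, plus strand), the gene of lanosterol synthase, stood at 57.1, 74.2, 88.2, 41.5 and 38.8 TPM in DMSO. Its lowest, median and highest values were 7.10, 17.9 and 52.0 TPM in LY, 9.43, 42.6 and 138 in FGF4, and 0, 15.2 and 24.9 in LY+FGF4. LY+FGF4 alone was wholly below DMSO. The averaged effect was -1.59 (SE 0.47, limma adjusted p = 0.0483), and the call was lost in 19 of 26 fits that each dropped a library (adjusted p up to 0.0888). Sqle, the gene of the rate-limiting squalene epoxidase, averaged 37.8 ± 4.99 TPM for DMSO, 14.1 ± 9.65 for LY, 33.2 ± 27.7 with FGF4 and 12.4 ± 12.7 with LY+FGF4, with an averaged difference of -1.80 that did not pass (adjusted p = 0.0733).

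From lanosterol to cholesterol, 2 of 9 genes fell in the averaged LY effect and 8 of 9 differences were below 0, beside 62.7% of all genes tested. Nsdhl (chrX:72918557-72958514, plus strand), a dehydrogenase gene of C4 demethylation, was at 72.4, 112, 53.6, 50.8 and 72.1 TPM in DMSO. The lowest, median and highest were 11.4, 25 and 46.3 TPM in LY, 28.98, 43.7 and 111 in FGF4, and 0, 26.7 and 52.4 in LY+FGF4. LY lay wholly below DMSO and the other groups overlapped it. The averaged effect was -1.44 (SE 0.43, limma adjusted p = 0.0474), a call lost in 19 of 26 fits that each dropped a library (adjusted p up to 0.0943).

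Sc5d (chr9:42251595-42264256, minus strand), the gene of lathosterol oxidase, was low, at 7.19, 11.97, 9.95, 15.9 and 7.21 TPM in DMSO. In LY its lowest, median and highest were 0, 1.99 and 7.25 TPM, in FGF4 3.30, 8.72 and 46.3, and in LY+FGF4 0, 0.28 and 12.3. It was at 0 in 1 of 7 LY and 3 of 6 LY+FGF4 libraries and in none of the DMSO and FGF4 libraries. The averaged effect was -2.00 (SE 0.49, limma adjusted p = 0.0164), on a scale where 1 TPM was added and low values count for less.

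Cyp51, Hsd17b7 and Msmo1 narrowly missed the threshold in the averaged LY effect. Cyp51 removes the first methyl group of lanosterol, and its averaged difference was -1.91 (limma adjusted p = 0.0533). Hsd17b7 acts with Nsdhl and had -1.83 (adjusted p = 0.0562), and Msmo1, the C4 methyl oxidase gene, had -1.71 (adjusted p = 0.0662). Cyp51 averaged 72.5 ± 21.5 TPM for DMSO, 20.5 ± 17.1 for LY, 45.8 ± 26.3 with FGF4 and 49.5 ± 98.8 with LY+FGF4. The last mean rests on replicate 2 at 250.84 TPM, beside a median of 11.7, and without that library Cyp51 was called lower in the averaged effect. Cyp51 shares 166 exonic bases with Akap9 on the opposite strand. The averaged LY difference of Akap9 was -1.14 (limma adjusted p = 0.452), and its part in the Cyp51 values was not tested. Hsd17b7 averaged 38.4 ± 14.5 TPM for DMSO, 13.4 ± 7.82 for LY, 42.0 ± 24.4 with FGF4 and 16.9 ± 15.7 with LY+FGF4.

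Lbr and Tm7sf2 encode enzymes for the same C14 reduction. Lbr, also a protein of the nuclear envelope, averaged 176 ± 56.2 TPM in DMSO and 105 ± 46.7 in LY, and Tm7sf2 7.00 ± 4.38 and 4.20 ± 3.57. Their averaged differences of -0.75 (limma adjusted p = 0.0896) and -0.81 (adjusted p = 0.473) did not pass. Lbr was thus far above Tm7sf2 in TPM in every group. Tm7sf2 shares 532 exonic bases with Vps51 on the same strand, which averaged 183 TPM over all libraries. The averaged LY difference of Vps51 was -1.19 (limma adjusted p = 0.246), and its part in the Tm7sf2 values was not tested.

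Ebp, the sterol isomerase gene, was the enzyme whose averaged LY difference lay above 0, at 0.44 with an interval of -0.09 to 0.98 (limma adjusted p = 0.358). It averaged 299.8 ± 137 TPM for DMSO, 324 ± 113 for LY, 124 ± 59.9 with FGF4 and 216 ± 101 with LY+FGF4. Dhcr7, which makes cholesterol from its last precursor in one branch, averaged 336 ± 43.8, 203 ± 117, 60.4 ± 35.4 and 98.6 ± 122 TPM, with an averaged LY difference of -0.72 (adjusted p = 0.525). For both, FGF4 stood further from DMSO than LY did, as described below.

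**Figure D4:**
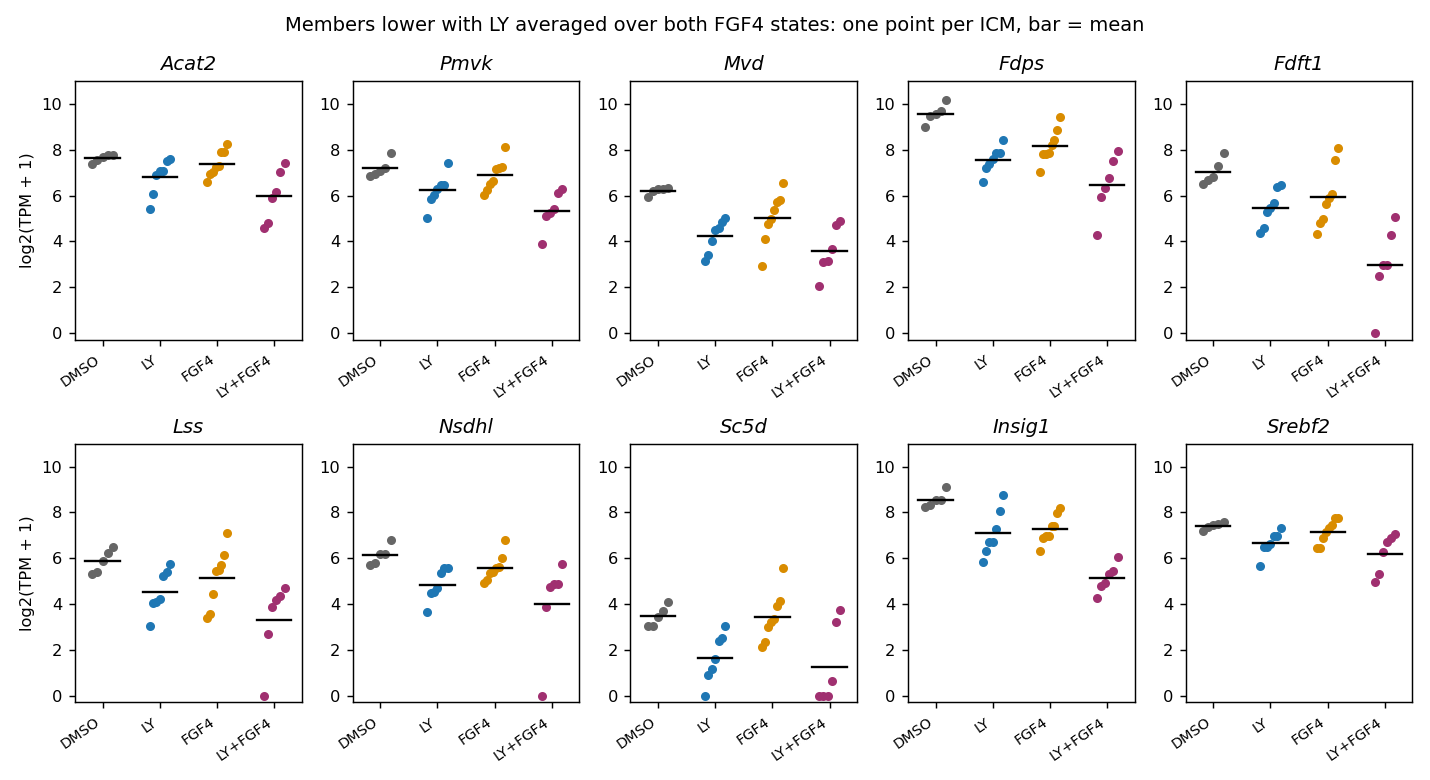
Levels in log2(TPM + 1) of the 10 genes that fell in the averaged LY effect, 1 point per ICM sorted by value within its group, bars at the mean. Means of the LY groups lie below those of the matching groups without LY in every panel, Sc5d is at 0 in 3 of 6 LY+FGF4 libraries, and the FGF4 libraries of Mvd, Lss and Fdft1 spread widely.

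Of the 6 regulators, Insig1 and Srebf2 fell in the averaged LY effect. Insig1 (chr5:28071363-28078662, plus strand) was at 315, 549.9, 366, 369.5 and 301 TPM in DMSO. Its lowest, median and highest values were 55.5, 103 and 435 TPM in LY, 78.4, 147 and 292 in FGF4, and 18.03, 33.8 and 65.4 in LY+FGF4. All LY+FGF4 libraries lay below all FGF4 and all DMSO libraries, and all FGF4 libraries lay below all DMSO libraries, while LY overlapped DMSO. Insig1 fell by 2.15 with FGF4 present (SE 0.37, limma adjusted p = 0.00114), a call kept in all 26 alternative fits, and by 1.80 in the averaged effect (SE 0.27, adjusted p = 0.000205), 3.48-fold lower and kept in all 37. Without FGF4 its difference of -1.45 did not pass (adjusted p = 0.108).

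Srebf2 (chr15:82147181-82205379, plus strand) was at 179, 192, 145, 172 and 165 TPM in DMSO. In LY the lowest, median and highest were 49.5, 98.4 and 157 TPM, in FGF4 86.8, 149 and 217, and in LY+FGF4 30.3, 90.2 and 130. LY+FGF4 was wholly below DMSO, and LY overlapped it at its upper end. The averaged effect was -0.86 (SE 0.23, limma adjusted p = 0.0279), 1.82-fold lower and smaller in size than that of the other 9 called genes. The call was lost without DMSO replicate 3, DMSO replicate 6 or LY+FGF4 replicate 8, where the adjusted p reached 0.0542 at most. The messenger RNA of Srebf2 says nothing of how much SREBP2 protein was cleaved.

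Scap (chr9:110333288-110384950, plus strand) was at 72.7, 125, 129, 107 and 198 TPM in DMSO. In LY its lowest, median and highest were 67.5, 151 and 192 TPM, in FGF4 60.4, 136 and 366, and in LY+FGF4 60.2, 168 and 316. The groups overlapped throughout, and the averaged LY difference was 0.13 with an interval of -0.46 to 0.72 (limma adjusted p = 0.857). Of the proteases, Mbtps1 averaged 20.2 ± 11.4 TPM in DMSO and 45.9 ± 18.4 in LY, and Mbtps2 56.1 ± 19.99 and 43.5 ± 26.7. Their averaged differences were 0.46 (adjusted p = 0.492) and 0.01 (adjusted p = 0.990).

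Insig2 (chr1:121304353-121332589, minus strand) is the second anchor of SCAP and is not driven by SREBP2 in the way Insig1 is. It stood at 44.4, 97.2, 53.3, 122 and 40.7 TPM in DMSO. The lowest, median and highest were 12.2, 72.7 and 115 TPM in LY, 99.6, 174 and 411 in FGF4, and 9.30, 214 and 408 in LY+FGF4. FGF4 reached higher than DMSO with a small overlap, and LY+FGF4 held values both below and above all DMSO libraries. Insig2 was called in 0 of the 6 comparisons, but it was called higher in FGF4 minus DMSO when only those groups were fitted, and in LY+FGF4 minus LY without the libraries under 9000 genes or without LY+FGF4 replicate 5. Without the libraries under 9000 genes, only LY+FGF4 replicates 6 and 7 remain, at 398 and 348 TPM of Insig2. The FGF4 minus DMSO difference was 1.44 with an interval of 0.03 to 2.86 (limma adjusted p = 0.311), and the averaged LY difference was -0.58 (adjusted p = 0.556).

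**Figure D5:**
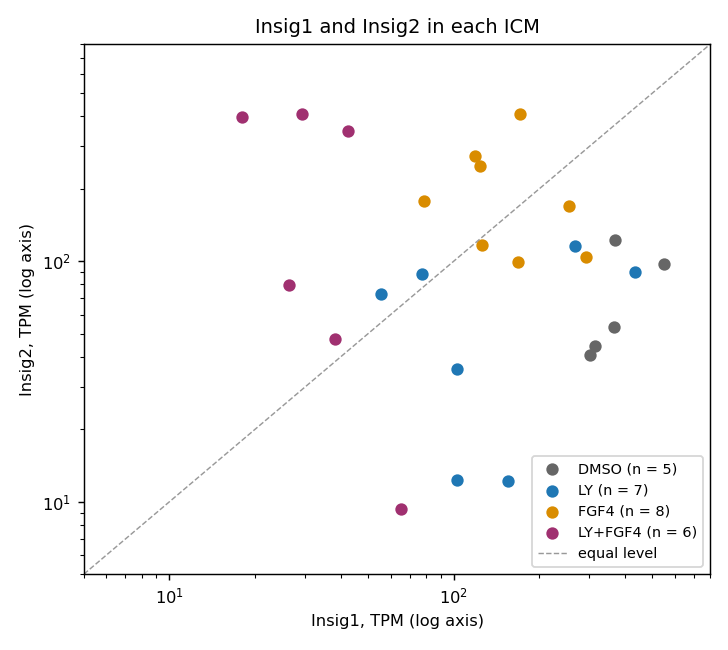
TPM of Insig2 (y axis, log) against Insig1 (x axis, log), 1 point per ICM, with a dashed line where the levels are equal. All 5 DMSO points lie below the line, and 5 of 6 LY+FGF4 points lie above it at Insig1 levels of 18.03 to 65.4 TPM.

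The balance of the 2 genes differed by group. The median ratio of Insig2 to Insig1 in TPM was 0.146 for DMSO, 0.347 for LY, 1.47 with FGF4 and 5.61 with LY+FGF4. Insig2 exceeded Insig1 in 0 of 5, 2 of 7, 4 of 8 and 5 of 6 libraries in that order. Dropping LY+FGF4 replicate 2, 6 or 7 moved that group's median to 3.04, and dropping FGF4 replicate 2, 4, 5 or 8 moved that of FGF4 to 0.931. These ratios are a description with no test.

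Stard4 averaged 10.3 ± 12.8 TPM in DMSO, 5.24 ± 10.0 in LY and 8.60 ± 13.1 in FGF4. It was listed at 0 in 3 of 7 LY libraries, in 2 of 8 FGF4 libraries and in all 6 LY+FGF4 libraries, so no fold is given.

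FGF4 alone was compared with DMSO, which shares the DMSO libraries with the LY comparison above. Of the 27 genes limma called 0, where 1.46% of all genes tested were called lower and 0.981% higher. At an unadjusted p under 0.05 stood 8 of the 27, of which 7 were lower and Insig2 was higher, beside 15.5% of all genes in either direction. The median difference was -0.55, beside -0.10 over all genes tested, and 23 of 27 were below 0, beside 56.1% of all genes. Every FGF4 library lay below every DMSO library for Dhcr7 and Insig1, beside 1.63% of all genes.

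Dhcr7, the enzyme of the last reduction, had 326.45, 389.8, 347.9, 269.5 and 346.9 TPM as its DMSO values and 8.69, 53.1 and 118 as its lowest, median and highest FGF4 values. The difference was -2.74 with an interval of -4.41 to -1.06 (limma adjusted p = 0.0711). Ebp had -1.26 (adjusted p = 0.0653), Insig1 -1.27 (adjusted p = 0.0797), Fdps -1.39 (adjusted p = 0.0838) and Msmo1 -2.39 (adjusted p = 0.0984). Weighting the libraries by their quality called these 5, and leaving out the 6 libraries under 9000 genes called Dhcr7 and Ebp. Of all genes the weights called 622 lower and 452 higher, beside 176 and 118 in the main fit. Leaving out those libraries called 260 and 210.

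FGF4 added to LY was compared with LY alone, which shares the LY libraries with LY minus DMSO. Of the 27 genes 3 fell (Fdft1, Msmo1 and Insig1) and 0 rose, where 4.5% of all genes were called lower and 1.79% higher. The median difference was -0.68, beside -0.24 over all genes tested. Msmo1 had 233, 438, 641, 442 and 237 TPM in DMSO, a lowest, median and highest of 58.6, 276 and 564 in LY, 14.7, 63.5 and 466 in FGF4, and 0, 14.5 and 57.3 in LY+FGF4. Every LY+FGF4 library lay below every LY library for Msmo1 alone among the 27, beside 1.21% of all genes. Msmo1 fell by 3.85 on the log2 scale (SE 0.76, limma adjusted p = 0.00270), Fdft1 by 2.49 (SE 0.64, adjusted p = 0.0180) and Insig1 by 1.97 (SE 0.38, adjusted p = 0.00258). The call of Fdft1 was lost without LY+FGF4 replicate 2 (adjusted p = 0.0530), and its difference was -1.42 without the libraries under 9000 genes (adjusted p = 0.317).

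Here too cell type markers moved. Of 22 tested primitive endoderm markers 9 rose with FGF4 in each state of LY and 0 fell, and of 13 epiblast markers 5 fell in each. Trophectoderm markers fell in 3 of 18 without LY and in 4 of 18 with it. Of all genes tested, 1.46% were called lower and 0.981% higher without LY, and 4.5% and 1.79% with it. Of the same 22 endoderm markers 7 fell and 0 rose in the averaged LY effect, beside 3.6% and 1.04% of all genes. In that effect 1 of 13 epiblast markers (Spp1) fell and 1 of 18 trophectoderm markers (Sfn) rose, each a single gene. The part of these markers in the sterol differences was not tested.

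Whether the LY effect depended on FGF4 was tested as an interaction, the effect with FGF4 minus the effect without it. Of the 27 genes 0 were called by limma, where 0.0249% of all genes were called lower and 0.0249% higher. Mbtps1 alone was under 0.05 unadjusted, beside 6.03% of all genes, with a difference of 1.26 without FGF4, -0.35 with it and -1.61 between them, which did not pass. The interaction of Insig1 was -0.70 with an interval of -1.82 to 0.42, that of Fdft1 was -1.37 (-3.24 to 0.50) and that of Fdps was 0.30 (-0.94 to 1.54). These intervals leave room for sizeable differences in either direction for Fdps and mostly downward for Fdft1.

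Genes next to the pathway were read from lists in the averaged LY effect, where 3.6% of all genes were called lower and 1.04% higher and the median over all genes was -0.18. Of 16 tested genes of fatty acid synthesis and desaturation that SREBP proteins regulate, 4 fell and 0 rose, with a median difference of -0.68. Scd1 and Scd2, which encode stearoyl-CoA desaturases, had averaged differences of -2.20 (limma adjusted p = 0.000517) and -2.32 (adjusted p = 2.05e-05). Scd1 averaged 273 ± 58.8 TPM for DMSO, 82.5 ± 59.1 for LY, 133 ± 51.1 with FGF4 and 34.7 ± 32.2 with LY+FGF4. Me1, malic enzyme, fell by 0.88 (adjusted p = 0.00842), and Fads2, a fatty acid desaturase, by 2.15 (adjusted p = 0.0375), a call lost in 15 of 26 fits that each dropped a library (adjusted p up to 0.0823). With FGF4 present Scd1 (-2.29), Scd2 (-2.89) and Me1 (-1.15) fell. Scd2 and Me1 also passed in LY+FGF4 against LY, with differences of -1.83 and -0.91 (the call of Me1 was lost in 11 of 13 such fits, with adjusted p up to 0.1098), and Mlxipl, a glucose-responsive factor, fell with FGF4 alone by 3.17 (adjusted p = 0.00566).

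Of 12 tested genes of lipoprotein uptake and endosomal sterol export, 3 fell and 0 rose in the averaged LY effect, beside the same 3.6% and 1.04% of all genes. Among them was Cubn, a receptor of the visceral endoderm that was also in the primitive endoderm list (-1.71, limma adjusted p = 0.00455). Cubn was low, at means of 2.29 TPM for DMSO, 0.264 for LY, 6.20 with FGF4 and 0.728 with LY+FGF4. It was at 0 in 4 of 7 LY and 4 of 6 LY+FGF4 libraries. Its averaged difference ran from -3.74 to -0.68 over settings that kept every library or dropped those under 9000 genes. The call was lost with quantile normalization. Lrp8, a lipoprotein receptor gene, was another (-1.57, adjusted p = 0.0343). Its call was lost in 8 of 26 fits with a library dropped (adjusted p up to 0.0725). Npc2, which hands cholesterol out of lysosomes, fell with FGF4, with a difference of -1.64 without LY (adjusted p = 0.0117) and of -1.93 with it (adjusted p = 0.00147). It averaged 679.6 ± 227 TPM in DMSO and 231 ± 127 in FGF4, and the call without LY was lost without DMSO replicate 6 (adjusted p = 0.0509).

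Of 17 sterol transfer genes 1 fell and 0 rose in the averaged LY effect, a share near the 3.6% and 1.04% of all genes. This was Tmem97, the sigma-2 receptor gene, at -1.10 (limma adjusted p = 0.0175), which averaged 273 ± 61.5 TPM in DMSO and 150.2 ± 40.7 in LY. With FGF4 present Tmem97 fell by 1.32 (adjusted p = 0.0416, lost in 8 of 14 fits with a library dropped, up to 0.0928). That call was also lost in 7 of 12 other settings, and without the libraries under 9000 genes the difference was -0.28, and -0.58 in the averaged effect (adjusted p = 0.115). With FGF4 present Osbpl6 had a value of 0 in all 6 LY+FGF4 libraries. Of 8 other genes of sterol synthesis 1 fell and 1 rose in the averaged effect. The one that rose, Cyb5r3, encodes an electron donor and had 161 ± 14.8 TPM in DMSO and 243 ± 26.2 in LY (0.52, adjusted p = 0.0164), and Cyb5a, its partner, rose in LY+FGF4 against LY by 1.31 (adjusted p = 0.0363, lost in 7 of 13 such fits, up to 0.0827).

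In the remaining lists of the sterol network few genes or none passed. Of 10 tested genes of cholesterol efflux and storage 0 fell and 1 rose in the averaged LY effect, beside 3.6% and 1.04% of all genes. Of 17 isoprenoid genes 0 were called in any of the 6 comparisons, and the smallest p in the averaged effect belonged to Rabggta (-0.62, limma adjusted p = 0.270) and Nus1 (-0.34, adjusted p = 0.272). Of 21 genes of sterol sensing and degradation in the endoplasmic reticulum 0 were called in any comparison, with Sec23b at -0.62 (adjusted p = 0.0579) and Erlin1 at -1.38 (adjusted p = 0.193) in the averaged effect. In that effect 0 of the 17 isoprenoid genes and 3 of these 21 were under 0.05 before adjustment, beside 19.2% of all genes, and both shares were below it. With the number of genes as covariate Scd1 and Scd2 were still called in the averaged effect, and Me1, Fads2, Cubn, Lrp8, Tmem97 and Cyb5r3 were not.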

How the data were processed

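Per the labels, the libraries were trimmed and de-duplicated, and STAR, RSEM and mm10 are the tools and build in the submitters' processing notes. The sources used here do not give their versions, the gene models or the strand setting. The deposited values are TPM per gene symbol, computed by the authors. TPM keeps no read number, so no counting intervals are given, and overlapping genes on the same or on opposite strands may share reads. Genes were placed by GENCODE M21 (GRCm38).

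A gene was tested if 5 or more libraries had it at 1 TPM or higher. R 4.3.3 and its limma package, version 3.58.1, fitted log2(TPM + 1) in 1 model of all 26 libraries with a coefficient for each group and limma's robust and trend settings. All tests were two-sided, with a Benjamini-Hochberg threshold of 0.05. The procedure was tested on simulated data with normal noise, which lack the zeros and the few-gene libraries seen here. All log2 differences are on this scale, which shrinks those of low genes. P-values rest on the spread between separate embryos within groups. Each gene has 1 estimate of it for all groups, which limma draws toward that of genes at a similar level. The number of value columns left unmapped to a sample was 0.

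The 27 genes and the lists were chosen with earlier results of these data known. For genes called in an LY comparison and for Insig1, Insig2, Srebf2 and Scap, every DMSO value is given, and for the larger groups the lowest, median and highest. Of each list, the called genes are named, and otherwise the 2 with the smallest p in the averaged LY effect. Hmgcs1, Msmo1 and Dhcr7 were given likewise after their values were seen. Some genes named by the rule are not reported here. Transcripts with copies of at least 90% identity over at least 300 bases were searched with BLAST 2.17.0. Copies of Fdps, Idi1, Fdft1, Ggps1, Sc5d and Acat2 other than Tcp1 reached at most 14.29 TPM in any library.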

Additional observations from a re-analysis of the deposited data

Results flagged for a closer look

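Within groups of 4 to 10 libraries, 7 of 107 groups (6.54%), in 6 genes, held a library set far apart from the nearest other by Dixon's test at 95% on log2(TPM + 1), where chance flags about 1 in 20. On that scale all 7 were the lowest of their group. On the TPM scale, which the test did not use, Cyp51 in LY+FGF4 replicate 2 stood far above its group, at 250.84 with the next highest at 17.28. Hmgcs1 was at 46.95 TPM in FGF4 replicate 3, with the next lowest at 252.77, and Dhcr7 at 8.69 in the same library, with the next at 36.52. Ggps1 was at 8.27 TPM in LY+FGF4 replicate 3, with the next at 54.61. Nsdhl was at 0 in LY+FGF4 replicate 2, with the next at 13.41. These 3 libraries were among the 6 under 9000 genes. In LY replicate 7, Sqle was at 0 (next 7.51) and Hsd17b7 at 0 (next 9.42). Hsd17b7 was also low in DMSO replicate 7, at 14.09 TPM with the next at 37.89.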

How the results depend on the processing

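The number of the 27 genes called depended on the settings. For LY minus DMSO (1 called) it was 0 with no filter, with the number of genes as covariate, with neither trend nor robust options and with the replicate block, 5 with library weights, and 2 with only the groups compared. Library weights called 353 of all genes lower and 143 higher, beside 36 and 9 in the main fit. With only the groups compared these counts were 106 and 55. Leaving out 1 library gave 0 to 2: 0 without any DMSO library or without LY replicates 4, 6, 7 or 8, and 2 without LY replicate 2. For LY+FGF4 minus FGF4 (5 called) it was 1 with library weights, with the number of genes as covariate, with only the groups compared and without the libraries under 9000 genes, and 3 with the replicate block, and leaving out 1 library gave 4 to 7. Of all genes 340 were called lower and 87 higher in the main fit. These counts were 94 and 17 with library weights and 74 and 113 with the covariate. They were 57 and 16 with only the groups compared, and 145 and 26 without the libraries under 9000 genes. For the averaged LY effect (10 called) it was 3 with the number of genes as covariate, 5 with the replicate block and 14 with library weights. Of all genes 433 were called lower and 125 higher in the main fit. These counts were 108 and 160 with the covariate, 160 and 59 with the block and 591 and 153 with the weights. The number of the 27 genes called also changed in other settings. It was 8 with no filter, a pseudocount of 0.1, median-ratio scaling or neither trend nor robust options, and without the libraries under 9000 genes. It was 9 with quantile normalization and 11 with a pseudocount of 5, and leaving out 1 library gave 7 to 13. For FGF4 minus DMSO (0 called) it was 1 with a pseudocount of 5 and with quantile normalization, 5 with library weights, 4 with only the groups compared (3 lower, and Insig2 higher) and 2 without the libraries under 9000 genes. Library weights called 622 of all genes lower and 452 higher, beside 176 and 118 in the main fit. With only the groups compared these counts were 209 and 151. Leaving out 1 library gave 0 to 2: 1 without DMSO replicate 9 or FGF4 replicate 6, and 2 without FGF4 replicate 7. For LY+FGF4 minus LY (3 called) it was 0 with the number of genes as covariate, and 2 with library weights or with only the groups compared. Of all genes 542 were called lower and 216 higher in the main fit. These counts were 55 and 53 with the covariate, 267 and 89 with the weights and 233 and 87 with only the groups compared. Without the libraries under 9000 genes, which leaves LY+FGF4 replicates 6 and 7, 2 were called lower and Insig2 was called higher. Of all genes 387 were called lower and 210 higher there. Leaving out 1 library gave 2 to 4. The interaction called 0 in all 37 alternative fits. The causes of these changes were not tested. No called difference reversed.

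Libraries of the same replicate number did not deviate together (31 pairs, median r -0.00406, 0 over 0.1), so the numbers were not treated as pairs. With the replicate block the FGF4 minus DMSO count (0) and the LY+FGF4 minus LY count (3) did not change. Fitting only the groups compared gives no value for the averaged effect or the interaction.

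Quantile normalization moved the median of all genes in the averaged effect from -0.18 to -0.0012, and that of the 27 genes from -1.14 to -1.08. The split of all genes called lower against higher moved from 433 and 125 to 297 and 199 in the averaged effect, from 340 and 87 to 190 and 128 for LY+FGF4 minus FGF4, and from 542 and 216 to 409 and 271 for LY+FGF4 minus LY. Read number is not held in TPM, so depth limits on low genes such as Sc5d, Stard4 and Tm7sf2 are unknown.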
